A study of Arabidopsis thaliana with 18 samples.

Results

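The alternative respiratory enzymes of plant mitochondria were followed through 10 genes, the 5 alternative oxidases AOX1A, AOX1B, AOX1C, AOX1D and AOX2, the internal NAD(P)H dehydrogenases NDA1 and NDA2, the external NAD(P)H dehydrogenases NDB2 and NDB4, and UPOX, a mitochondrial protein named for its upregulation by oxidative stress. They are 10 of the 32833 genes in the deposited count table and were found there by their locus identifiers. The set was chosen from measured values of the same libraries, and which of them is not stated. The disc levels in sugar against mannitol are treated as the values the set was selected on and are given below as a description and without a test. The fructose libraries against the glucose libraries, and the leaf groups, carry p-values from the fit over all genes, which are not independent of the choice if those values were used too.

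RNA-seq libraries of Arabidopsis thaliana Col-0 were made in 2 experiments of 9 libraries each, with 3 biological replicates in every one of 6 groups. In the disc experiment, pieces cut from mature rosette leaves of 4-week-old plants lay overnight in diluted Murashige and Skoog medium that held 1% mannitol as the osmotic control, 1% glucose or 1% fructose, so that all 3 groups were wounded and kept in liquid medium. In the leaf experiment, leaves of untreated 4-week-old plants came from the wild type, from ERDL4-overexpressor 1 and from ERDL4-overexpressor 2, lines that overexpress a vacuolar sugar transporter. No label names the promoter of the transgene. The question addressed was how external glucose and fructose, and a changed vacuolar sugar transport, act on gene expression.

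Library totals ran from 17318810 to 26157641 counts, and the text below gives levels as normalised counts (CPM, counts scaled to a common library size by the trimmed mean of M values, TMM) within each experiment. ERDL4 was at 111 to 152 CPM in the wild-type leaves, at 350.2 to 359 CPM in overexpressor 1 and at 568 to 604 CPM in overexpressor 2, above the wild type in 6 of 6 overexpressor libraries. The 4 leaf markers RBCS1A, LHCB1.1, RCA and LHCA4 were present in all libraries, the 3 seed storage markers were at 0 in all of them, and the 3 flower markers summed to at most 1.43 CPM. The root markers were at 0 in the discs and at most 0.196 CPM in the leaves. The summed leaf markers fell apart by group, from 21633 to 32290 CPM in mannitol, 4673 to 8579 CPM in fructose and 362 to 1612 CPM in glucose, and from 38161 to 58438 CPM in the wild type against 19096 to 27271 CPM in the overexpressors. Their part in the results below was not tested, and in such bulk samples a change in the share of cells cannot be told apart from a change in RNA per cell. Replicates 2 and 3 of each overexpressor were close to each other, with a chi-square of their counts, divided by its degrees of freedom, of 2.07 in overexpressor 1 and 1.70 in overexpressor 2, against 4.59 to 66.1 in the other 16 replicate pairs.

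In plant mitochondria, alternative oxidases pass electrons from ubiquinol straight to oxygen and so bypass complex III and complex IV, without pumping protons. The type II NAD(P)H dehydrogenases feed electrons into ubiquinone beside complex I, also without pumping, NDA enzymes from the matrix side and NDB enzymes from the side of the intermembrane space. AOX1A is the classical marker of mitochondrial retrograde signalling in Arabidopsis, in which the membrane-bound NAC transcription factors ANAC017 and ANAC013 act on a promoter element called the mitochondrial dysfunction motif.

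AOX1A (AT3G22370) lies on chromosome 3 of TAIR10.1, from 7906521 to 7908746 on the plus strand, with 4 exons. AOX1B (AT3G22360) lies just upstream on the same strand, from 7904097 to 7905576, also with 4 exons, and 944 bases separate the neighbours. AOX1C (AT3G27620) lies on chromosome 3 from 10229045 to 10230707 on the minus strand with 4 exons. AOX1D (AT1G32350) lies on chromosome 1 from 11666886 to 11668690 on the minus strand with 3 exons, and AOX2 (AT5G64210) on chromosome 5 from 25683770 to 25685731 on the minus strand with 5 exons. NDA1 (AT1G07180) lies on chromosome 1 from 2204104 to 2207099 on the plus strand, and NDA2 (AT2G29990) on chromosome 2 from 12793320 to 12796085 on the minus strand, each with 8 exons. NDB2 (AT4G05020) lies on chromosome 4 from 2572427 to 2576599 on the plus strand with 10 exons, and NDB4 (AT2G20800) on chromosome 2 from 8953057 to 8955831 on the minus strand with 6 exons. UPOX (AT2G21640) lies on chromosome 2 from 9254378 to 9255743 on the plus strand with 3 exons. No other annotated gene overlaps any of the 10, and all 50-base stretches of their exons occur once in the genome, so reads of AOX1A and AOX1B can be assigned to one or the other at that length.

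The bases before the annotated start of each gene were searched on both strands for 3 motifs. The mitochondrial dysfunction motif was searched as CTTGNNNNNCAAG or CTTGNNNNNCACG, and it stood within 250 bases of the start in 4 of the 10 genes (AOX1B, NDA1, NDB2 and UPOX), against 1.2% of 27443 nuclear genes. The W-box, searched as TTGACC or TTGACT, stood in 7 of the 10 against 28.4% of all, and the G-box CACGTG in AOX2 and UPOX against 6.49%. The 10 genes were chosen from measured values, so these shares are a description and were not tested. AOX1A held no match to the first motif within 500 bases before its start, a window in which 2.09% of all genes did, and the same 4 genes matched in both windows. Bases after the annotated start were not searched in any gene. A match there would be missed, so AOX1A is not shown to lack the motif. The last 130 bases before the start are shown for the 4 genes with the dysfunction motif, set in capitals, and for AOX1A with its pair of W-boxes in capitals, as sequence of the sense strand read from TAIR10.1 (RefSeq).
AOX1A (chr3:7906391-7906520, plus strand): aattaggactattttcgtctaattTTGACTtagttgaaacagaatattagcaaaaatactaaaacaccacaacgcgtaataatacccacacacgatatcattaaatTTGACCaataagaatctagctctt
AOX1B (chr3:7903967-7904096, plus strand): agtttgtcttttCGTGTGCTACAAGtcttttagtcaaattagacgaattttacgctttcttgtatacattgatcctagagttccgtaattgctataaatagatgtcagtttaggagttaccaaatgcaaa
NDA1 (chr1:2203974-2204103, plus strand): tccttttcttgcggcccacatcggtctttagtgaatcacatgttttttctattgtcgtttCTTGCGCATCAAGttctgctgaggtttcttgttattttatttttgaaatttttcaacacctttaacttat
NDB2 (chr4:2572297-2572426, plus strand): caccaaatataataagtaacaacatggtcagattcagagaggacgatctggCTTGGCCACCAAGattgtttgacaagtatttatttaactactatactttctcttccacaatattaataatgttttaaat
UPOX (chr2:9254248-9254377, plus strand): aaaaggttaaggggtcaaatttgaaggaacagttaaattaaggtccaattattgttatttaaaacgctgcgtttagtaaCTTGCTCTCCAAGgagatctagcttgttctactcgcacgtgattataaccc

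In NDA1, NDB2 and UPOX the match reads on both strands and lies 39 to 79 bases before the start, while the match of AOX1B reads on the minus strand only and lies 106 to 118 bases before it. These matches are letters in a window and no measure of binding. The 4 genes with the dysfunction motif differed in discs. NDA1 had the smallest log2 fold changes of the 9 genes tested there, 1.06 in fructose and 1.57 in glucose. NDB2 had 3.40 and 4.20, and UPOX 3.50 and 4.96. AOX1B had no count in 12 of the 18 libraries and was counted in the sugar discs alone. Whether the motif had a part in these levels was not tested.

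**Figure D1:**
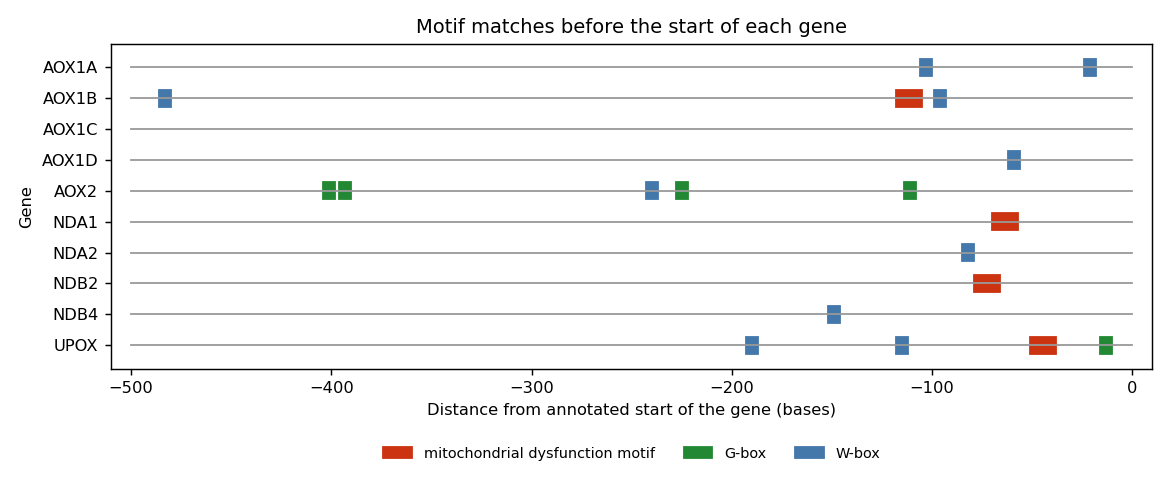
Motif matches in the 500 bases before the annotated start of each gene (x axis, bases; one line per gene; boxes to scale). The mitochondrial dysfunction motif (red) is seen in AOX1B, NDA1, NDB2 and UPOX, G-boxes (green) in AOX2 and UPOX, and W-boxes (blue) in 7 genes.

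In the discs, sugar came with high levels of nearly the whole set. AOX1A, the main oxidase, had on average 14.7-fold the mannitol level in fructose and 46.5-fold in glucose, and the stress-inducible AOX1D 29.2-fold and 129.6-fold. The external dehydrogenases NDB2 and NDB4 and the marker UPOX lay between 10.6-fold and 194-fold, whereas the internal dehydrogenases NDA1 and NDA2 lay between 2.07-fold and 3.54-fold. Of the 10 genes, 9 passed the filter on low counts (all but AOX2), and edgeR called 9 of 10 higher both in fructose and in glucose. Of all 18784 genes tested, 36.6% were called higher and 29.5% lower in fructose, and 38.5% higher and 35.5% lower in glucose, against mannitol. Because these differences are treated as the values the set was selected on, and because a gene such as AOX1B passed the filter through the sugar libraries alone, the counts are given as a description.

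AOX1A stood at 25.9, 26.1 and 34.4 CPM in the mannitol discs, at 411, 634 and 225 CPM in fructose and at 1646, 1217 and 1158 CPM in glucose (replicates 1, 2 and 3 in each list). The 3 groups did not overlap, with mannitol the lowest and glucose the highest. The fitted log2 fold change against mannitol was 3.88 ± 0.37 (SE) in fructose and 5.54 ± 0.40 in glucose.

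AOX1D, which in Arabidopsis is known as a stress-inducible oxidase, stood at 2.64, 1.71 and 5.74 CPM in mannitol, at 76.9, 177 and 41.4 CPM in fructose and at 415, 494 and 399 CPM in glucose. The order of the groups was that of AOX1A, again without overlap. Its log2 fold change against mannitol was 4.84 ± 0.64 in fructose and 6.99 ± 0.70 in glucose.

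AOX1B, the upstream neighbour of AOX1A, had no count in any mannitol library. It stood at 19.2, 13.9 and 12.5 CPM in fructose and at 8.45, 22.3 and 4.54 CPM in glucose. Against a floor of 3 counts over the mannitol group it was at least 285-fold higher in fructose and at least 230-fold higher in glucose, bounds that cover counting error only. The levels in the sugars overlapped, which among the oxidases was also seen for AOX1C.

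AOX1C and AOX2 stayed low. AOX1C stood at 0.0574, 0.514 and 0.271 CPM in mannitol, at 1.34, 0.825 and 1.35 CPM in fructose and at 1.43, 0.906 and 1.45 CPM in glucose, where no mannitol library reached a sugar library. AOX2, the family member known for expression in seeds, had 2 counts in all mannitol libraries, 4 in all glucose libraries and 32 in all fructose libraries. Its 3 fructose libraries, at 0.510, 0.388 and 0.486 CPM, lay above all 6 others, and the ratio to mannitol was 13.2 with a 95% counting interval of 3.38 to 114.

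The internal dehydrogenases differed less between the groups. NDA1, whose transcript is known to be light-regulated in Arabidopsis, stood at 23.53, 23.4 and 13.2 CPM in mannitol, at 40.0, 49.3 and 35.3 CPM in fructose and at 66.02, 60.3 and 51.1 CPM in glucose. NDA2 stood at 10.2, 7.88 and 10.08 CPM in mannitol, at 24.6, 31.8 and 20.1 CPM in fructose and at 34.2, 35.3 and 30.2 CPM in glucose. Every sugar library lay above every mannitol library for both genes. The log2 fold changes of NDA1 were 1.06 ± 0.22 in fructose and 1.57 ± 0.22 in glucose, and those of NDA2 were 1.44 ± 0.17 and 1.82 ± 0.17.

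The external dehydrogenases were on another scale. NDB2, often described as a partner of AOX1A in stressed plants, stood at 24.6, 21.6 and 31.6 CPM in mannitol, at 251, 374 and 196 CPM in fructose and at 515, 513 and 404 CPM in glucose. NDB4 stood at 0.172, 0.286 and 0.543 CPM in mannitol, that is 20 counts in all, at 21.5, 25.7 and 13.0 CPM in fructose and at 75.9, 65.6 and 52.2 CPM in glucose. No groups overlapped for either gene. The log2 fold changes of NDB2 were 3.40 ± 0.26 in fructose and 4.20 ± 0.27 in glucose, and those of NDB4 were 5.82 ± 0.41 and 7.51 ± 0.40.

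UPOX stood at 11.6, 9.71 and 10.5 CPM in mannitol, at 118, 157 and 85.9 CPM in fructose and at 361, 315 and 314 CPM in glucose. Its groups were separate, and its spread within mannitol and within glucose was among the smallest of the set, with a coefficient of variation of 9.18% and 8.19%. The log2 fold change was 3.50 ± 0.21 in fructose and 4.96 ± 0.22 in glucose.

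**Figure D2:**
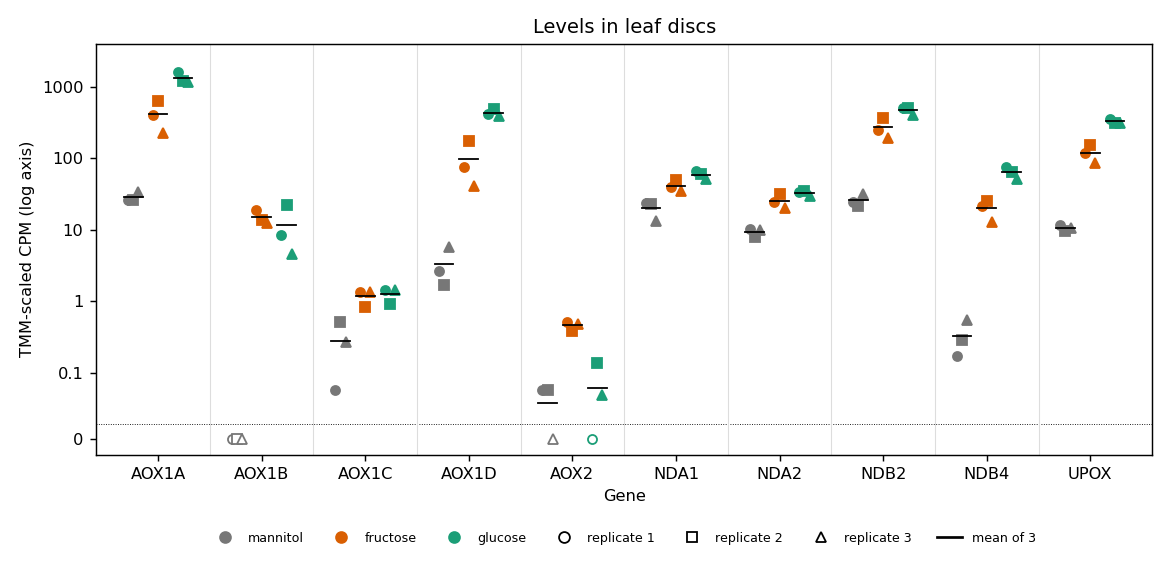
Level of each gene in the 9 disc libraries (y axis, TMM-scaled CPM on a log axis, zeros drawn as open symbols on the line marked 0; symbols mark replicates, bars the mean of 3). Glucose lies above fructose for AOX1A, AOX1D, NDA1, NDB2, NDB4 and UPOX, fructose above glucose for AOX2, and both overlap for AOX1B, AOX1C and NDA2.

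The replicates of the fructose group spread more widely than those of glucose for most of the set. Replicate 2 was the highest and replicate 3 the lowest of the fructose discs for AOX1A, AOX1D, NDA1, NDA2, NDB2, NDB4 and UPOX, and AOX1A differed from 225 to 634 CPM between them, a coefficient of variation of 48.4% against 19.9% in glucose. The summed leaf markers ran the opposite way in the same libraries, with 4673 CPM in replicate 2 and 8579 CPM in replicate 3, and reads of the mitochondrial genome made up 0.0221% of counts in replicate 2 and 0.0136% in replicate 3. In mannitol the mitochondrial genome took 0.0104% to 0.0148% of counts and in glucose 0.0480% to 0.0560%. Whether these measures had a part in the levels of the 10 genes was not tested.

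Fructose and glucose were compared directly by edgeR's quasi-likelihood test with Benjamini-Hochberg adjustment over all 18784 genes, with the fructose and glucose libraries that are also part of the contrasts described above, so the values are no independent support for a pattern of the set. Of the 9 genes tested, 5 were lower in fructose than in glucose and 0 were higher, where 24.6% of all genes tested were lower and 24.7% higher. At an unadjusted p under 0.05 edgeR likewise had 0 higher, as did DESeq2 and limma-voom after adjustment. AOX1D fell furthest, with a log2 difference of -2.15 ± 0.54 (adjusted p = 0.0128), followed by NDB4 at -1.69 ± 0.26 (adjusted p = 0.00174), AOX1A at -1.66 ± 0.34 (adjusted p = 0.00479) and UPOX at -1.46 ± 0.19 (adjusted p = 0.00101), each lower in all 3 fructose libraries than in any glucose library. NDB2 differed by -0.80 ± 0.23 (adjusted p = 0.0192), also without overlap. That call was lost when glucose replicate 1 (adjusted p = 0.0630), fructose replicate 1 (0.0681) or fructose replicate 3 (0.0538) was left out, within a range of 0.00150 to 0.0681 over 15 alternatives.

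The remaining genes did not pass in edgeR's test. NDA1 differed by -0.51 ± 0.22 (adjusted p = 0.0757), without overlap of the libraries, and NDA2 by -0.38 ± 0.17 (adjusted p = 0.0781), with overlap. Over 15 alternatives NDA1 passed in 5 and NDA2 in 2. AOX1C differed by -0.10 ± 0.44 (adjusted p = 0.868). AOX1B was at 0.36 ± 0.56 (adjusted p = 0.620), with the widest spread in glucose of all genes but AOX2, and without glucose replicate 2 the difference rose to 1.22 and passed (adjusted p = 0.0169, within 0.0169 to 0.968 over 15 alternatives). AOX2 was too low for the filter. Its 32 counts in fructose and 4 in glucose are given without a test. In alternative fits it was kept only with no filter on low counts or through its fructose libraries.

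To compare genes with each other, levels were divided by exon length (CPM per kb). In mannitol AOX1A was the highest at 16.3 and UPOX second at 14.4 CPM per kb, with overlapping ranges, followed by NDB2 at 10.12 and NDA1 at 9.23, which also overlapped, and by NDA2 at 4.83. In glucose AOX1A at 759.6, UPOX at 449, AOX1D at 286 and NDB2 at 186 CPM per kb led in that order with no overlap between neighbours. In fructose the first 4 were AOX1A at 240.0, UPOX at 164, NDB2 at 107 and AOX1D at 64.5 CPM per kb, with overlap between neighbours among them. AOX1D thus moved from the sixth place in mannitol to the third in glucose, and NDB4 from the eighth, at 0.161 CPM per kb, to the fifth, at 31.1, where it overlapped NDA1 at 27.3.

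The make-up of the oxidase family changed with its sum. The 5 oxidases together stood at 18.8 ± 4.07 CPM per kb (SD, n = 3) in mannitol, 318 ± 161 in fructose and 1056 ± 147 in glucose. AOX1A held 87.5% ± 3.92 of that sum in mannitol, 76.0% ± 2.03 in fructose and 71.6% ± 5.07 in glucose, so every sugar library had a smaller share of AOX1A than every mannitol library. AOX1D held 11.1% ± 4.61 in mannitol, 19.0% ± 4.18 in fructose and 27.4% ± 4.54 in glucose. AOX1B held 2.32% to 6.10% in fructose and 0.401% to 1.76% in glucose, without overlap, although its own level did not pass the test between the sugars. These shares describe relative amounts within a library and are not tested.

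**Figure D3:**
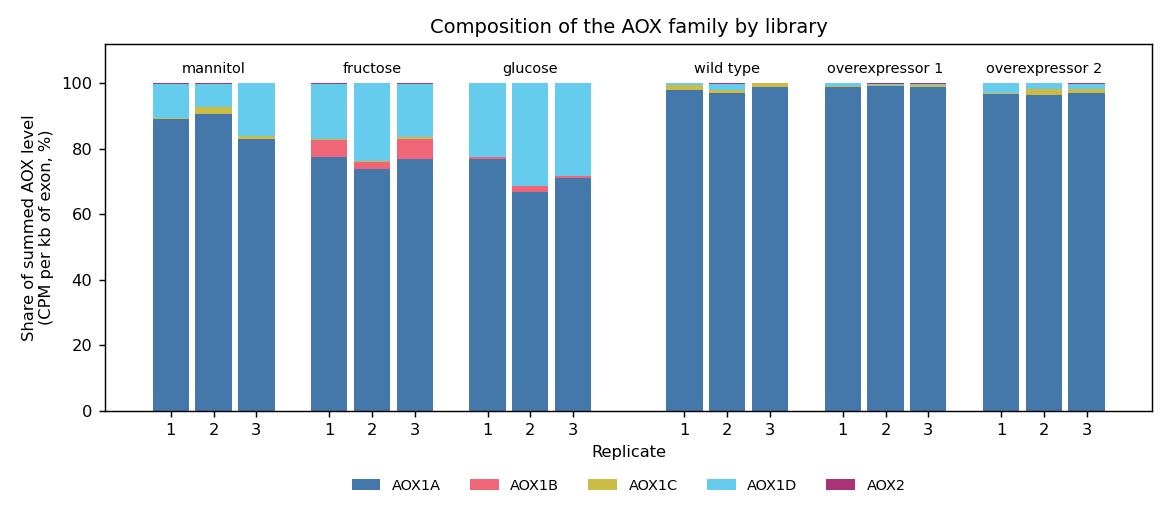
Share of each alternative oxidase in the summed CPM per kb of the family, in percent, for each library (x axis, replicates within the 3 disc groups at left and the 3 leaf groups at right; bars sum to 100%). AOX1D takes 22.4% to 31.4% in glucose discs, AOX1B is seen in sugar discs alone, and AOX1A takes at least 96.5% in every leaf library.

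The leaves of intact plants had another balance of the same genes. In the wild type NDA1 was the highest at 51.7 CPM per kb, above AOX1A at 30.1, NDA2 at 14.1 and NDB2 at 9.84 with overlap between the last pair, and UPOX followed at 4.36. AOX1D, AOX1C, AOX2 and NDB4 were each below 1 CPM per kb in wild-type leaves, and AOX1B had 0 counts in all 9 leaf libraries. AOX1A held 98.0% ± 0.99 (SD, n = 3) of the oxidase family in the wild type, 99.0% ± 0.15 in overexpressor 1 and 96.8% ± 0.29 in overexpressor 2, while the family sum went from 30.7 ± 2.08 to 76.1 ± 20.3 and 57.6 ± 16.4 CPM per kb. Levels of discs and leaves were scaled apart and are not compared by a test.

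In the overexpressor leaves, AOX1A and NDB2 were higher than in the wild type in both lines. AOX1A had 2.50-fold the wild-type mean in overexpressor 1 and 1.85-fold in overexpressor 2, and NDB2 had 1.87-fold and 1.47-fold. NDA1 passed in overexpressor 1 and AOX1D in overexpressor 2, each without passing in the other line, but a direct comparison of the lines separated neither. NDA2, AOX1C and UPOX did not pass in either line. Of the 10 genes, 7 passed the filter on low counts (all but AOX1B, AOX2 and NDB4), and edgeR called 3 higher and 0 lower in each line. The 3 in overexpressor 2 include AOX1D, which passed that filter through the overexpressor libraries. Of the 18703 genes tested, 21.5% were higher and 22.3% lower in overexpressor 1, and 20.6% higher and 21.5% lower in overexpressor 2. For 0 lower, edgeR at an unadjusted p under 0.05, DESeq2 and limma-voom also gave 0 in both lines. The lines share the 3 wild-type libraries. Reads of the mitochondrial genome made up 0.00465% to 0.00526% of counts in the wild type and 0.00599% to 0.00856% in the 6 overexpressor libraries, without overlap, and their part in the leaf results was not tested.

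AOX1A stood at 52.6, 56.4 and 50.4 CPM in the wild type, at 91.9, 150.3 and 156 CPM in overexpressor 1 and at 131, 81.5 and 83.0 CPM in overexpressor 2. All 6 overexpressor libraries lay above all 3 of the wild type, and the lines overlapped each other. The log2 fold change was 1.32 ± 0.23 in overexpressor 1 (edgeR adjusted p = 0.00166) and 0.89 ± 0.23 in overexpressor 2 (adjusted p = 0.0123), and both passed in 15 of 15 alternatives. In each line replicate 1 stood apart from the close pair of replicates 2 and 3, low in overexpressor 1 and high in overexpressor 2, and without replicate 1 of overexpressor 2 the change was 0.63 (adjusted p = 0.0381).

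NDB2 stood at 28.7, 28.5 and 18.4 CPM in the wild type, at 48.4, 44.8 and 47.9 CPM in overexpressor 1 and at 45.4, 31.5 and 34.6 CPM in overexpressor 2. Again no wild-type library reached an overexpressor library. The log2 fold change was 0.90 ± 0.18 (edgeR adjusted p = 0.00315) in overexpressor 1, where it passed in 15 of 15 alternatives. In overexpressor 2 it was 0.56 ± 0.18 (edgeR adjusted p = 0.0318) and passed in 10 of 15, with an adjusted p of 0.00703 to 0.108 over them. It was lost without replicate 1 (0.108) or replicate 3 (0.0533) of overexpressor 2 or replicate 3 of the wild type (0.0650), when replicates 2 and 3 of each overexpressor were merged (0.0606), and when the wild type and overexpressor 2 were fitted alone (0.0535).

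NDA1 stood at 118, 109 and 109.5 CPM in the wild type, at 148, 169 and 180.2 CPM in overexpressor 1 and at 152, 117 and 115 CPM in overexpressor 2. Overexpressor 1 was above the wild type in all libraries, by 0.57 ± 0.13 on the log2 scale (edgeR adjusted p = 0.00651), and overexpressor 2 overlapped the wild type at 0.19 ± 0.13 (adjusted p = 0.271), which passed by library size alone at 0.45 (adjusted p = 0.0138). NDA2, the other matrix-side enzyme, stood at 32.4, 31.3 and 18.1 CPM in the wild type, at 36.7, 24.4 and 22.1 CPM in overexpressor 1 and at 26.7, 20.1 and 21.4 CPM in overexpressor 2. Its groups overlapped, and its log2 differences were 0.03 ± 0.25 (adjusted p = 0.945) and -0.26 ± 0.25 (adjusted p = 0.430).

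AOX1D was near the limit of detection in leaves, with 20 counts in the wild type, 45 in overexpressor 1 and 110 in overexpressor 2. It stood at 0.256, 0.790 and 0 CPM in the wild type, at 0.707, 0.514 and 0.541 CPM in overexpressor 1 and at 3.53, 1.295 and 1.14 CPM in overexpressor 2. Overexpressor 2 was above the wild type in all 3 libraries, by 2.51 ± 0.79 on the log2 scale (edgeR adjusted p = 0.0280). AOX1D passed the filter on low counts in leaves through the overexpressor libraries, so this call is given as a description. The call was lost without replicate 1 of overexpressor 2, at a change of 1.81 (adjusted p = 0.105, within 0.00480 to 0.105 over 15 alternatives), without replicate 1 of the wild type (0.0880) and with the close replicates merged (0.0616), and without replicate 2 of the wild type the change was 3.93. The change of overexpressor 1 was 0.76 ± 0.84 (adjusted p = 0.485).

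UPOX did not pass the test in leaves. It stood at 2.67, 3.79 and 3.16 CPM in the wild type, at 2.75, 2.17 and 3.20 CPM in overexpressor 1 and at 3.81, 2.54 and 2.80 CPM in overexpressor 2, with overlap of all groups. The log2 differences were -0.25 ± 0.24 (edgeR adjusted p = 0.425) and -0.07 ± 0.24 (adjusted p = 0.827), the latter changing sign with the scaling. Per length, AOX1A stood at 6.20 to 8.21 times the level of UPOX in the wild type and at 12.3 to 28.9 times in the overexpressors, while in the discs the ratio was 0.926 to 1.37 in mannitol, 1.09 to 1.69 in fructose and 1.54 to 1.90 in glucose. AOX1C had 28, 30 and 40 counts in the wild type, overexpressor 1 and overexpressor 2, with log2 differences of -0.28 ± 0.55 (adjusted p = 0.707) and 0.55 ± 0.53 (adjusted p = 0.428). NDB4, at 20.1 CPM or more on average in the sugar discs, had 1, 10 and 1 counts in the 3 leaf groups, and AOX2 had 3, 10 and 3.

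**Figure D4:**
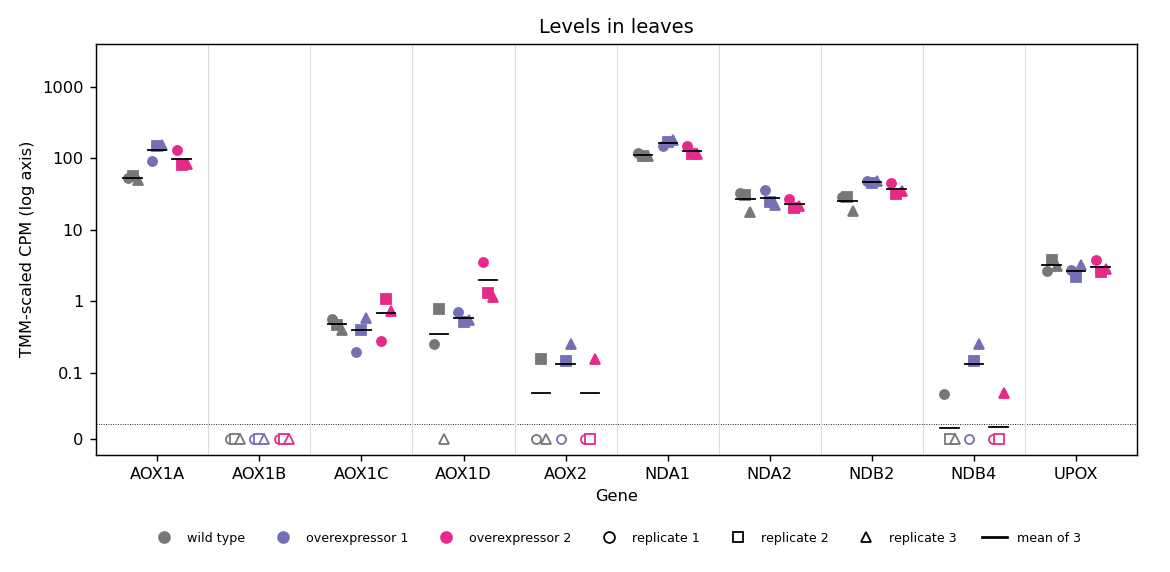
Level of each gene in the 9 leaf libraries (y axis, TMM-scaled CPM on a log axis, zeros drawn as open symbols on the line marked 0; symbols mark replicates, bars the mean of 3). All 6 overexpressor libraries lie above the wild type for AOX1A and NDB2, the groups overlap for NDA2, AOX1C and UPOX, and AOX1B is at 0 throughout.

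The lines were also compared with each other. In edgeR 0 of the 7 genes tested were higher and 0 lower in overexpressor 2 than in overexpressor 1, against 0.0321% of all genes higher and 0.0214% lower, and DESeq2 and limma-voom gave 0 as well. At an unadjusted p under 0.05, edgeR had 1 gene higher, AOX1D at 1.74 ± 0.71 (adjusted p = 0.300), and 1 lower, NDA1 at -0.38 ± 0.13 (adjusted p = 0.228). AOX1A differed by -0.43 ± 0.23 (adjusted p = 0.414) and NDB2 by -0.34 ± 0.18 (adjusted p = 0.414). A p above the threshold does not show that the lines were alike.

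**Figure D5:**
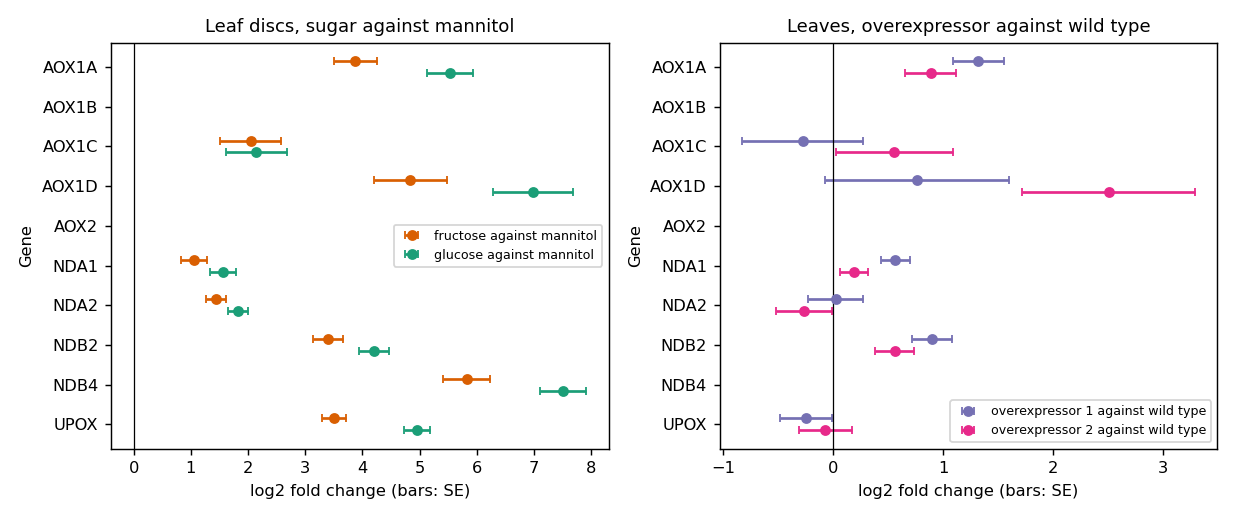
Fitted log2 fold changes with their SE (x axis) for the genes that passed the filter on low counts, in discs against mannitol (left) and in leaves against the wild type (right); the axes differ in scale, and AOX1B is not drawn because it had no counts in mannitol. In discs the values run from 1.06 for NDA1 in fructose to 7.51 for NDB4 in glucose, and in leaves AOX1A and NDB2 lie above 0 in both lines while UPOX lies near 0.

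The rest of both enzyme families, which the set leaves out, was read in the same fits. NDB3, another external enzyme with 7 counts in mannitol, stood at 3.77 ± 0.92 CPM (SD, n = 3) in fructose and 5.56 ± 2.01 CPM in glucose. Its fitted log2 fold changes were 4.88 ± 0.55 and 5.44 ± 0.54. NDB3 passed the filter on low counts in discs through the sugar libraries, so both values are given as a description. NDB1, an external enzyme known as specific for NADPH, rose in fructose by 1.08 ± 0.19, and its value in glucose was 0.36 ± 0.20 (edgeR adjusted p = 0.122, and 0.0175 by library size alone). NDC1, which is found in mitochondria and plastids, rose in fructose by 0.22 ± 0.08 but did not pass with DESeq2's size factors (0.13), and had -0.0077 ± 0.08 in glucose. IMMUTANS, the plastid terminal oxidase, had -0.16 ± 0.10 and -0.23 ± 0.10 and did not pass, though with those size factors it was called lower in both sugars (-0.26 and -0.27) and by library size alone it stood at 0.090 and -0.030. In all, edgeR called 3 of these 4 genes higher and 0 lower in fructose, and 1 higher and 0 lower in glucose. Both counts include NDB3, which is the 1 in glucose. Between the sugars NDB1 was higher in fructose by 0.72 ± 0.19 (adjusted p = 0.0115) and NDC1 by 0.23 ± 0.08 (adjusted p = 0.0455, and 0.111 with those size factors), where NDB2 was lower and so was NDB4. In leaves NDB3 had 7 counts in the wild type, 69 in overexpressor 1 and 19 in overexpressor 2; it passed the filter on low counts through overexpressor 1, where it was called higher, so no test is given. NDB1 fell in overexpressor 1 by 0.56 on the log2 scale (adjusted p = 0.00728), NDC1 fell in overexpressor 2 by 0.42 (adjusted p = 0.00767, and 0.208 by library size alone), and IMMUTANS rose in both lines by 0.40 and 0.36 (adjusted p = 0.0117 and 0.0204).

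The factors of mitochondrial retrograde signalling were read next, from a list chosen with earlier results of these data known. ANAC013, which acts on the dysfunction motif, stood at 14.3 ± 1.5 CPM (SD, n = 3) in mannitol, 114 ± 40.2 in fructose and 268 ± 34.9 in glucose, with log2 fold changes of 2.99 ± 0.25 and 4.23 ± 0.27. ANAC017, upstream of it and known to be held in the endoplasmic reticulum membrane and released by cleavage, fell by 0.40 and 0.22, and did not pass when scaled by library size alone (-0.14 and -0.017). WRKY40, a repressor of AOX1A in Arabidopsis, rose by 2.64 ± 0.31 and 4.21 ± 0.32, and WRKY63 by 4.27 ± 0.50 and 5.89 ± 0.49, whereas CDKE1, a Mediator kinase needed for AOX1A induction, fell by 1.05 and 0.59. WRKY63 had 16 counts in mannitol and passed the filter on low counts through the sugar libraries, so its values are a description. MYB29 rose in fructose by 2.71 ± 0.61, with 0.66 ± 0.62 in glucose (adjusted p = 0.358). ANAC016 rose by 0.54 and 1.305, and ANAC053 and RCD1, a partner of ANAC013, rose in glucose by 1.303 and 1.00, with -0.02 and -0.29 in fructose, which became 0.23 and -0.034 by library size alone, while RCD1 passed as lower there with DESeq2's size factors (-0.38, adjusted p = 0.0401). WRKY15 fell by 0.54 in fructose (-0.29 by library size alone, where it did not pass) and rose by 0.84 in glucose, ANAC078 was at -0.0026 and 0.17 without passing (0.25 and 0.38 by library size alone, where both passed), and ABI4 had 0 counts in all libraries. Of 12 listed factors 11 were tested, and edgeR called 5 higher and 3 lower in fructose and 7 higher and 2 lower in glucose, where all genes had 36.6% and 29.5% in fructose and 38.5% and 35.5% in glucose, so the fructose counts are near those of all genes. Between the sugars 8 were lower and 1 higher in fructose, against 24.6% and 24.7% of all genes.

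Genes known as targets of that signalling rose in the discs as well. Of 14 listed targets, all 14 rose in fructose, with a median log2 fold change of 3.87, and all 14 rose in glucose, with a median of 5.43, where the medians of all genes tested were 0.09 and 0.03 and 36.6% and 38.5% of them were called higher. All 14 were lower in fructose than in glucose, with a median of -1.74 against 0.01 for all genes, of which 24.6% were lower. The list was chosen with earlier results of these data known, so these counts are a description and no independent support. The targets include the mitochondrial outer membrane protein OM66 (3.64 ± 0.40 in fructose and 4.99 ± 0.43 in glucose), the small heat shock protein HSP23.5 (4.74 ± 0.39 and 6.41 ± 0.42), the glycosyltransferase UGT74E2 (5.59 ± 0.48 and 7.85 ± 0.52) and the stomatin-like protein SLP2 (4.17 ± 0.38 and 5.67 ± 0.41). AT12CYS, a small mitochondrial protein, went from 1 count in mannitol to 1122 in fructose and 3649 in glucose, a ratio of 929 with a 95% counting interval of 166 to 36717 in fructose. It passed the filter on low counts through the sugar libraries. The others with a symbol had log2 fold changes of 3.01 and 4.77 for the sulfotransferase SOT12, 1.73 and 3.22 for the transcription factor CRF6, 4.23 and 6.23 for the transporter ABCB4, 3.22 and 5.19 for the cytochrome P450 CYP81D8, and 4.10 and 5.92 for the kinase AGC2-1.

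In leaves the counts of targets called were near those of all genes, of which 21.5% were higher and 22.3% lower in overexpressor 1 and 20.6% and 21.5% in overexpressor 2. Of 11 targets tested, 2 were higher and 4 lower in overexpressor 1, with a median log2 fold change of -0.39, and 1 was higher and 3 lower in overexpressor 2, with a median of -0.47, where all genes tested had 0.01 and 0.02; by library size alone 3 were higher and 3 lower, and 2 higher and 3 lower, with medians of -0.18 and -0.21. CRF6 rose by 1.07 ± 0.16 (edgeR adjusted p = 0.000677) and 0.83 ± 0.16 (adjusted p = 0.00246), while SOT12 fell by 1.29 (adjusted p = 0.00292) and 1.33 (adjusted p = 0.00304). SLP2 fell in overexpressor 1 by 0.39 (adjusted p = 0.0348, and 0.2995 by library size alone), and OM66 had -0.71 ± 0.41 (adjusted p = 0.191) and -0.87 ± 0.42 (adjusted p = 0.127). Of 10 factors tested, 5 were higher and 1 lower in overexpressor 1, and 3 higher and 1 lower in overexpressor 2. ANAC013 rose by 1.15 ± 0.15 (adjusted p = 0.000458) and 0.92 ± 0.15 (adjusted p = 0.00132), ANAC078 by 0.65 ± 0.11 and 0.50 ± 0.11 (adjusted p = 0.00115 and 0.00483), and RCD1 by 0.42 and 0.30 (adjusted p = 0.0104 and 0.0498, the latter 0.0554 with DESeq2's size factors). ANAC017 rose in overexpressor 1 by 0.32 (adjusted p = 0.0172) and CDKE1 by 0.43 (adjusted p = 0.0194), and WRKY15 fell by 1.32 and 1.52 (adjusted p = 0.00678 and 0.00412). WRKY40 did not pass in either line. Its level was 17.3 ± 17.7 CPM (SD, n = 3) in the wild type. In overexpressor 1 and overexpressor 2 it was 4.37 ± 0.49 and 8.15 ± 7.48 CPM.

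Finally, the genes whose log2 CPM went most closely with AOX1A were listed for each experiment among genes with a mean of at least 5 CPM, as a description over 9 libraries that share their 3 groups. In the discs they were ANAC013 (Pearson's r = 0.9993), AT3G58150, SLP2 (AT5G54100), WRKY63 and eIF6A, the fifth at r = 0.9986, among 14163 genes. UPOX came 50th at 0.996, NDB4 61st at 0.996, AOX1D 123rd at 0.994, NDB2 360th at 0.990, NDA2 668th at 0.985, NDA1 2944th at 0.930 and AOX1B 3832nd at 0.872. In the leaves the first 5 were AT5G65990 (r = 0.992), AT1G32520, AT4G13010, the lipocalin TIL and the monodehydroascorbate reductase MDAR4 (r = 0.990) among 13872 genes. NDA1 came 679th at 0.918 and NDB2 1517th at 0.868, and NDA2 was at -0.08.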

How the data were processed

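The authors deposited one table of raw read counts per gene for 18 libraries, with no normalization. Per the submitters' processing notes, reads went through fastp, HISAT2 2.0.5 and StringTie 1.3.3 with the TAIR10 genome. No source used here names the counting program or its strand setting; per the labels' protocols the libraries were directional.

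Each experiment (9 libraries) was fitted alone with group means as the design: edgeR 4.0.16 in R 4.3.3, filterByExpr, TMM scaling, robust quasi-likelihood tests and Benjamini-Hochberg adjustment over all genes, with a threshold of 0.05. SE is the absolute log2 fold change divided by the square root of F. The fit was tested on simulated data with 200 changed genes. Exon lengths, coordinates and sequence came from TAIR10.1. Alternatives used limma 3.58.1, DESeq2 1.42.0, other scalings and filters, a replicate block, merged replicates and omitted libraries. The labels call the replicates biological without saying what was replicated, so p-values cover only the spread between libraries. Counting intervals and floors cover counting error only.

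The genes and lists were chosen with earlier results of these data known. All 10 genes, all genes with a symbol of the small lists, the first 3 of each larger list and the 5 genes nearest to AOX1A were eligible to be named.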

Additional observations from a re-analysis of the deposited data

How the results depend on the processing

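The calls of AOX1A, AOX1D, NDB4 and UPOX between fructose and glucose, and of AOX1A, NDA1 and NDB2 in overexpressor 1, held in 15 of 15 alternatives, as did AOX1A in overexpressor 2. The count of genes higher in fructose than in glucose, 0, became 1 with no filter on low counts and 1 with near-identical pairs merged, in both cases AOX2 (32 counts in fructose and 4 in glucose), and ranged from 0 to 2 when single libraries were left out. The calls of AOX2 are a description, since it was kept only with no filter or through its fructose libraries. The pairs merged were replicates 2 and 3 of each overexpressor and replicates 1 and 2 of mannitol. The count higher in overexpressor 2, 3, became 1 with near-identical pairs merged and ranged from 1 to 3 with single libraries left out; with library size alone it was 4, NDA1 being added. The share of AOX1A without division by length was 79.2% in fructose, 99.2% in overexpressor 1 and 97.3% in overexpressor 2. Differences that changed sign, with single libraries left out, were those between the sugars of AOX1B (from -0.026 to 1.22) and AOX1C (from -0.29 to 0.092), those in overexpressor 1 of AOX1C (from -0.65 to 0.042) and NDA2 (from -0.23 to 0.19), and those of UPOX in overexpressor 2 (from -0.26 to 0.091) and between the lines (from -0.017 to 0.31). UPOX in overexpressor 2 was also at 0.18 with library size alone and at 0.0054 with pairs merged. The cause was not tested.

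Scaling by library size alone moved the median of all genes from 0.09 to 0.34 in fructose, from 0.03 to 0.23 in glucose, from 0.01 to 0.22 in overexpressor 1 and from 0.02 to 0.28 in overexpressor 2, and the share of higher among called genes in overexpressor 2 from 49.0% to 74.4%, in overexpressor 1 from 49.0% to 68.7%, and in fructose from 55.3% to 68.2%. Correlations of same-numbered libraries were -0.43 to 0.11 over 9 pairs in the discs and -0.09 to 0.16 in the leaves, over 0.1 in 1 and 3 pairs, so not every pair deviated together and the numbers were not taken as pairing. With a replicate block 6 genes of the set were called between fructose and glucose against 5, and the counts of the set in the other comparisons were the same; all genes called between the lines went from 10 to 1. Low counts limit AOX1B, AOX1D, AOX2 and NDB4 in leaves, where 3 counts are the floor over a group.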

Other observations

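The complexes of the main respiratory chain were read in the same edgeR fits as named lists, chosen with earlier results of these data known. Of all genes tested, edgeR called 36.6% higher and 29.5% lower in fructose, 38.5% and 35.5% in glucose, 21.5% and 22.3% in overexpressor 1 and 20.6% and 21.5% in overexpressor 2. In the discs 18 of 19 genes of the cytochrome pathway (complex III, cytochrome c and complex IV) were higher and 0 lower in fructose, with a median log2 fold change of 1.09, and 17 were higher and 0 lower in glucose, with a median of 1.21. Both cytochrome c genes rose, CYTC-1 by 1.40 ± 0.10 in fructose and 1.82 ± 0.10 in glucose and CYTC-2 by 1.55 ± 0.12 and 1.93 ± 0.12, and cytochrome c1 (CYC1-1) rose by 1.42 ± 0.09 and 1.44 ± 0.09. Of 9 complex II genes 8 were higher and 0 lower in each sugar, among them SDH1-1 by 1.38 ± 0.11 and 1.71 ± 0.11. Of 20 nuclear genes of complex I, 14 were higher and 1 lower in fructose (median 0.42) and 9 higher and 2 lower in glucose (median 0.19), and EMB1467 rose by 0.73 ± 0.10 and 0.33 ± 0.10 while CI51 had -0.0032 ± 0.09 and -0.04 ± 0.09 without passing. The medians of all genes were 0.09 and 0.03. For complex I in glucose the count of higher genes is near the share of all genes, while 2 lower of 20 is below the 35.5% of all genes.

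In the leaves the cytochrome pathway had 0 genes higher and 12 of 19 lower in overexpressor 1 (median -0.36), and 1 higher and 8 lower in overexpressor 2 (median -0.36), while scaling by library size alone gave 2 higher and 4 lower (median -0.15) and 2 higher and 2 lower (median -0.088). Complex I had 0 higher and 9 of 20 lower in overexpressor 1 and 1 higher and 9 lower in overexpressor 2, against 3 higher and 8 lower and 3 higher and 3 lower by library size alone. Complex II, near the shares of all genes, had 1 higher and 3 lower in overexpressor 1 and 1 higher and 2 lower in overexpressor 2, and by library size alone its median changed sign, from -0.17 to 0.045 and from -0.19 to 0.080. CYTC-1 fell by 0.57 in overexpressor 1 (edgeR adjusted p = 0.0361, and 0.0987 by library size alone), and SDH1-1 rose in both lines by 0.50 ± 0.11 and 0.53 ± 0.11 (adjusted p = 0.00572 and 0.00479). Of 5 uncoupling and dicarboxylate carriers, 4 were higher and 0 lower in each sugar in discs, and 1 was higher and 3 lower in overexpressor 1 and 1 higher and 2 lower in overexpressor 2. The uncoupling protein PUMP1 rose in discs by 0.78 ± 0.10 in fructose and 1.23 ± 0.10 in glucose and fell by 0.51 in overexpressor 1 (adjusted p = 0.00462), and the carrier DIC1 rose by 1.93 ± 0.23 and 1.63 ± 0.22 and fell by 0.83 and 0.75 in the lines (adjusted p = 0.0165 and 0.0270, and 0.0524 and 0.104 by library size alone).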
